A study of Homo sapiens with 6 samples.

Results

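The clustered protocadherins are 53 cell-adhesion genes that lie side by side on the long arm of human chromosome 5. They were taken from the table by name, as every row whose gene name is PCDHA, PCDHAC, PCDHB, PCDHGA, PCDHGB or PCDHGC followed by a number, which gave 53 of 19974 annotated genes and of 26184 genes and loci in all. The RNA came from 3 samples of the parental line Huh7 P, human hepatocellular carcinoma cells labelled wild type and untreated, and from 3 samples of the resistant line Huh7 LR. Lenvatinib is a kinase inhibitor drug used against liver cancer. Huh7 LR was grown from Huh7 P in lenvatinib raised stepwise from 1 μM over 10 months and then kept in 20 μM. It is 1 derived line, and the 3 samples of each group are repeat samples of 1 line each, so p-values measure the spread between these samples only. Whether lenvatinib was in the medium at harvest was not stated for the RNA samples, so the selected state and the presence of the drug cannot be told apart.

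Protocadherins of these clusters are single-pass membrane proteins whose extracellular cadherin repeats bind the same isoform on a neighbouring cell. They are best known from neurons, where each cell transcribes its own small set of isoforms and uses that set to tell its own branches from those of other cells. In the alpha and gamma clusters each gene has its own promoter and 1 large variable exon, which is spliced to constant exons used by the whole cluster. The beta genes are single-exon genes and have no constant exons. Promoter choice is known to involve DNA methylation, the DNA-binding factor CTCF and the ring complex cohesin, which joins promoters to distant enhancers. The C-type genes at the 3′ ends of the alpha and gamma clusters are usually regulated apart from the others.

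On GRCh38 in GENCODE release 29, the alpha cluster (15 genes, of which 2 are C-type) spans chr5:140786136-141012347, the beta cluster (16 genes) chr5:141051135-141249365 and the gamma cluster (22 genes) chr5:141330571-141512981. The gamma genes fall into 12 of type A, 7 of type B and 3 of type C. All 53 are on the plus strand. The 15 alpha genes share 3 constant exon segments of 59, 89 and 2718 bases, together 18.8% to 53.5% of a gene's exon bases. With every overlap among the members counted, the shared part was 19.2% to 56.6%. The 22 gamma genes share segments of 59, 89 and 2033 bases, together 25.2% to 45.9%, and 27.6% to 64.4% with every overlap counted. Reads from those segments fit all genes of a cluster equally well, and how the authors assigned them is not given in the sources used here. The values of single alpha and gamma genes are therefore uncertain, and so are sums over the gamma types and shares within these clusters. If each such read was counted once, for 1 gene, the sum over a cluster does not depend on which gene took it. Whether that was done is not known. Among the beta genes, PCDHB14 and PCDHB15 overlap 1 other listed gene on the same strand by 169 and 379 exon bases.

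The promoters of 7 of these genes are shown because the results below turn on the genes they start. They cover 250 bases before to 50 bases after the transcription start, on the plus strand, from RefSeq on GRCh38.p14. Capitals mark CGCT, the letters at the core of a short element known from most clustered protocadherin promoters.
PCDHA4 (chr5:140806818-140807117): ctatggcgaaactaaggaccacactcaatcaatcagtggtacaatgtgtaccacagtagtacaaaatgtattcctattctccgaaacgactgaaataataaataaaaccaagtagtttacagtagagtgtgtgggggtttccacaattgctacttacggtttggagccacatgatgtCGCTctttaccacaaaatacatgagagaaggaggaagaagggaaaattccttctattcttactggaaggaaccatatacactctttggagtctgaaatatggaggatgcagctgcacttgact
PCDHA8 (chr5:140840937-140841236): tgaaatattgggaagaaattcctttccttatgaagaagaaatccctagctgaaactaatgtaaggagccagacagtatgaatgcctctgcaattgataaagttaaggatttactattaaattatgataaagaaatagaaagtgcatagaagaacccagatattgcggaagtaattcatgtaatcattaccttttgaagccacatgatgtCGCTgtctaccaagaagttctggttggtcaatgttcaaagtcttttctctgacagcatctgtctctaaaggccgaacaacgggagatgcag
PCDHB3 (chr5:141100223-141100522): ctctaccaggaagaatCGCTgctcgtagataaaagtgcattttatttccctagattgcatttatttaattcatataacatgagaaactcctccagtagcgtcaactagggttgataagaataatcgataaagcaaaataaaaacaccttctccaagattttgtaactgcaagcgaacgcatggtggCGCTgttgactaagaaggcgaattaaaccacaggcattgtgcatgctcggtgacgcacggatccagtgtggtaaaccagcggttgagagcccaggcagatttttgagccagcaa
PCDHB14 (chr5:141223093-141223392): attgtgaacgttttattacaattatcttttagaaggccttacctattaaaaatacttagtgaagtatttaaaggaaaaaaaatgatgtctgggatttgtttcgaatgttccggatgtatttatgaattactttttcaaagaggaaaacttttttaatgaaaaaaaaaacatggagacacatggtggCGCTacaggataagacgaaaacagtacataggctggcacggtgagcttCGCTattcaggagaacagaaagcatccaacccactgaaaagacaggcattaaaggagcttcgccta
PCDHGA7 (chr5:141382492-141382791): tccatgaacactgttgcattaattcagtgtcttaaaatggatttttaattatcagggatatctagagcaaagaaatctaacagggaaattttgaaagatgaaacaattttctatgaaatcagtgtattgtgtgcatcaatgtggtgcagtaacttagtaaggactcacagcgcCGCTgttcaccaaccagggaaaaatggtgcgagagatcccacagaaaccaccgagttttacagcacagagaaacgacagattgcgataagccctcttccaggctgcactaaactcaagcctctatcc
PCDHGB5 (chr5:141397697-141397996): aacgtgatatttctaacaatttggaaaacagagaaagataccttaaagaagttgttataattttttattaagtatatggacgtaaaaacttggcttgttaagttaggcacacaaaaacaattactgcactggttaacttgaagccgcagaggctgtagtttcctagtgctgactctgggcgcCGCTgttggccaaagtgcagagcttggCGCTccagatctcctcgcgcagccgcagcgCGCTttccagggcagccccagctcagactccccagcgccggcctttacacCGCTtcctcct
PCDHGC3 (chr5:141475716-141476015): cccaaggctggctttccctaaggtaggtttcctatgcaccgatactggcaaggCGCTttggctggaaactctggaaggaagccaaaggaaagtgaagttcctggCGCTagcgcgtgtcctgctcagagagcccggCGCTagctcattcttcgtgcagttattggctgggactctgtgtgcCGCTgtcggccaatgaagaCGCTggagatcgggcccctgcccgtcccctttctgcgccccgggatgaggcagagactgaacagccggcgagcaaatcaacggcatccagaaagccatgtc
PCDHA4 and PCDHA8 rose and PCDHGA7, PCDHB14 and PCDHGC3 fell in Huh7 LR, while PCDHB3 and PCDHGB5 had the highest FPKM of their clusters. PCDHGB5 has 2 listed promoters, of which the first is shown.

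The promoters of PCDHA4 and PCDHA8 shared the 17-base run agccacatgatgtCGCT, with CGCT starting 73 and 41 bases before the transcription start. That run was found in 3 of 13 alpha promoters and in no other of the 35116 promoters of the table, on either strand. PCDHB3 and PCDHB14 shared the 12-base run catggtggCGCT, with CGCT 64 bases before the start in both, which 3 of 14 beta promoters and 6 of all promoters held. PCDHGA7, PCDHGB5 and PCDHGC3 had the 8-base run gcCGCTgt in common, with CGCT 77, 68 and 70 bases before the start, found in 13 of 25 gamma promoters and in 1.63% of all promoters. Over all 52 promoters listed for 47 of the 53 genes, CGCT was found on either strand in 51 (98.1%), and in 70.0% of all 35116 promoters of the same length. The exception was 1 promoter of PCDHA9. A CTCF core motif, searched on both strands as 1 fixed pattern, was found in 1 of the 52 promoters, that of PCDHB9, and in 10.6% of all promoters. Genes that rose and genes that fell thus both carried CGCT. A match is a description of letters and does not show that a factor binds there. Nor does a missing match to the fixed pattern show that CTCF does not bind.

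The libraries held between 62738937 and 71427573 counts, in ranges that overlapped between the lines, and the 53 genes made up between 318 and 370 CPM before TMM scaling. The limit that a count of 0 allows is 3 counts, or 0.0420 to 0.0478 CPM (a count divided by its library's total and scaled up), for counting error only. Levels below are CPM scaled by TMM (edgeR's trimmed mean of M-values) unless FPKM, a level per kilobase of transcript, is named. A gene is said to have risen or fallen where the adjusted p (Benjamini-Hochberg, over 17531 genes and loci) of edgeR's quasi-likelihood test was under 0.05, and is said to have been called where that p was under 0.001 and the change over 2-fold. The line was checked against its markers. The 12 liver markers all passed the filter on low counts, and their summed level ran from 44422 to 53587 CPM in Huh7 P and from 57911 to 61022 CPM in Huh7 LR, and 8 of 12 rose (66.7%, beside 23.3% of all genes and loci tested), among them FGB (log2 fold change 2.49), AHSG (1.73), APOH (1.46) and GPC3 (1.2). Of 14 neuron markers 7, STMN2 and DCX included, had at most 3 counts in every library. The neuron list summed to 18.2 to 22.8 CPM in Huh7 P and 14.3 to 28.9 CPM in Huh7 LR. Most of that sum was SYT1, at 14.3 ± 1.05 CPM in Huh7 P and 13.8 ± 6.42 CPM in Huh7 LR (SD, n = 3). SNAP25 stood at 4.52 ± 1.02 and 4.57 ± 0.711 CPM. GAD1, an enzyme of GABA synthesis, was the one of 5 tested that rose (log2 fold change 2.15).

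Of the 53 genes 46 had enough counts to test. In Huh7 LR 8 of them rose (17.4%) and 12 fell (26.1%), while 23.3% of all genes and loci tested rose and 22.4% fell. The count that rose was 4 without Huh7 P replicate 2 or 3, 5 without Huh7 P replicate 1 or Huh7 LR replicate 2, and 4 by limma-trend on FPKM. At the stricter threshold 2 were called higher, PCDHA4 and PCDHA8, and 1 lower, PCDHGA7, where 4.43% and 1.78% of all genes and loci were called. DESeq2 called 4 lower, the fit without a filter 3 and the fit with the replicate number as a block 2, whereas 1 was called higher by limma-trend on log2(FPKM + 0.1) and with at least 10 counts in every library, and limma-trend on log2(FPKM + 1) called 0 in either direction. In 13 tested genes all Huh7 LR libraries lay above all Huh7 P libraries and in 14 all lay below, against 28.2% and 27.7% of everything tested. The counts lay near or below the background, with falls somewhat above it, and no test of the family against other genes was made. By cluster, 5 of 9 tested alpha genes rose and 0 fell, 0 of 15 tested beta genes rose and 2 fell, and 3 of 22 tested gamma genes rose and 10 fell. The alpha count was 3 without Huh7 P replicate 2 and 2 without Huh7 P replicate 3, the latter being PCDHA4 and PCDHA8. With any library left out, 1 beta gene fell. The gamma rises numbered 0 without Huh7 P replicate 1 and 1 without Huh7 P replicate 2 or Huh7 LR replicate 2. The median log2 fold changes of the tested genes were 0.48, -0.13 and -0.58, beside 0.0046 over all genes and loci tested. By the unadjusted p under 0.05, 0 alpha genes fell and 1 beta gene rose. DESeq2 gave 0 and 0. By limma-trend on FPKM, which could test 3 alpha, 11 beta and 15 gamma genes, 1 alpha gene rose and 0 fell, 1 beta gene rose and 1 fell, and 2 gamma genes rose and 8 fell.

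**Figure D1:**
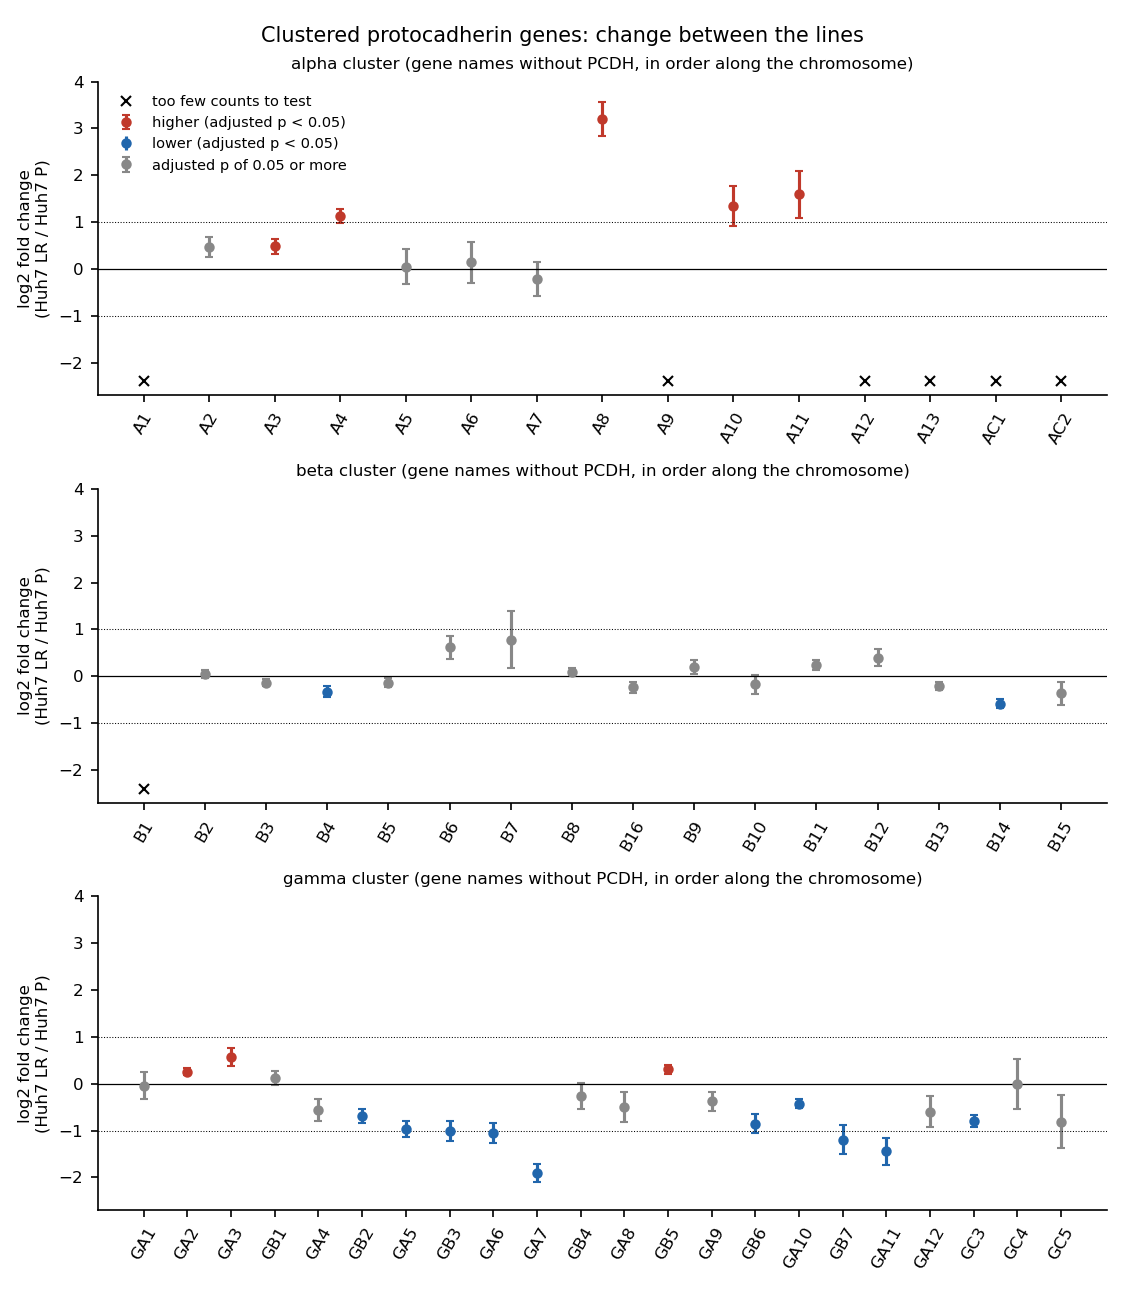
Log2 fold change (Huh7 LR over Huh7 P, edgeR, on the vertical axis) of each clustered protocadherin gene in its order along the chromosome, with bars of 1 standard error, n = 3 samples per line, dotted lines at 2-fold and crosses for the 7 genes with too few counts to test. Red points (5 alpha, 0 beta, 3 gamma) passed as higher and blue points (0 alpha, 2 beta, 10 gamma) as lower, and PCDHA8 (3.21) and PCDHGA7 (-1.90) lie farthest from 0 in either direction.

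The alpha cluster was the least transcribed in this line and the one whose sum rose. Its 15 genes together had 748, 579 and 568 counts in the parental samples and 1044, 1288 and 1179 in the resistant samples. All 3 Huh7 LR libraries were above all Huh7 P libraries. In a bulk sample, fewer cells transcribing a gene and less RNA per cell cannot be told apart. With the alpha genes' counts summed into 1 row, the level went from 9.50 ± 0.874 to 17.2 ± 1.18 CPM (SD, n = 3 each), a 1.81-fold rise (log2 fold change 0.86, SE 0.11, edgeR quasi-likelihood adjusted p = 7.50e-05). The exact two-sided permutation test of the summed CPM gave p = 0.1, the smallest that 3 against 3 allows. Without the largest contributor, PCDHA4, the log2 fold change was 0.70. No alpha gene reached a mean of 1 FPKM over the 6 libraries, whereas 9 beta and 7 gamma genes did.

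PCDHA4 (ENSG00000204967, chr5:140806929-141012344) had the highest mean FPKM of the alpha genes over the 6 libraries. In Huh7 P alone its mean FPKM of 0.385 was below those of PCDHA2 (0.525) and PCDHA3 (0.468), and in Huh7 LR it was first (1.14, against 0.794 and 0.666). It had 209, 208 and 213 counts in the parental samples and 406, 559 and 454 in the resistant samples. The lines were well apart, and the spread was wider in Huh7 LR. The level rose from 3.18 ± 0.239 to 6.95 ± 0.913 CPM (SD, n = 3), which is a log2 fold change of 1.13 (SE 0.14, edgeR quasi-likelihood adjusted p = 9.36e-05). Its FPKM was 0.257, 0.486 and 0.411 in parental and 1.05, 1.27 and 1.09 in resistant cells. The transcript length implied by each count and its FPKM varied among the libraries by a ratio of 1.88. The median ratio over 13464 genes and loci was 1.04. That length is inferred and its scale is uncertain, so only the ratio is given. The FPKM of this gene thus carries a length that differed between libraries, which the count does not.

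PCDHA8 (ENSG00000204962, chr5:140841187-141012344) was close to silent in Huh7 P. Its counts were 5, 12 and 10 in the parental samples and 80, 88 and 93 in the resistant samples. It rose from 0.139 ± 0.0636 to 1.28 ± 0.0716 CPM (SD, n = 3), for a log2 fold change of 3.21 (SE 0.36, edgeR quasi-likelihood adjusted p = 4.39e-05), the largest of the tested genes in the 3 clusters. Its mean FPKM went from 0.0473 ± 0.0216 to 0.269 ± 0.0360 (SD, n = 3), a smaller ratio than that of the CPM. Its share of the alpha counts went from 1.5% to 7.46%, and its share of the summed alpha FPKM from 2.46% to 7.51% (means of 3 libraries).

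The other 3 alpha genes that rose did so by less or from few counts. PCDHA3 went from 191, 120 and 159 to 210, 219 and 237 counts (log2 fold change 0.48, SE 0.17, edgeR adjusted p = 0.0365). Its lines did not overlap in CPM, but the adjusted p was 0.143 without Huh7 P replicate 2, 0.0715 without Huh7 P replicate 3, 0.116 without Huh7 LR replicate 3, 0.0639 in DESeq2 and 0.0733 in limma-trend on FPKM. PCDHA10 went from 26, 8 and 12 to 37, 48 and 34 counts (log2 fold change 1.35, SE 0.43, edgeR adjusted p = 0.0235). PCDHA11 went from 10, 13 and 9 to 18, 57 and 26 counts (log2 fold change 1.59, SE 0.50, edgeR adjusted p = 0.0227). Both rest on few counts. Leaving out Huh7 P replicate 2, Huh7 P replicate 3 or Huh7 LR replicate 2 took PCDHA10 to adjusted p-values of 0.0846, 0.0821 and 0.0745, and leaving out Huh7 P replicate 1, Huh7 P replicate 3 or Huh7 LR replicate 2 took PCDHA11 to 0.0763, 0.0784 and 0.148. Without Huh7 LR replicate 2 the log2 fold change of PCDHA11 was 1.02.

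PCDHA2, among the 3 highest alpha genes by mean FPKM over the 6 libraries, had 156, 118 and 84 counts in parental and 170, 173 and 163 in resistant cells. Its log2 fold change of 0.47 (SE 0.21) did not pass (edgeR adjusted p = 0.0871). PCDHA5, PCDHA6 and PCDHA7 had between 14 and 48 counts in each library and log2 fold changes of 0.05, 0.14 and -0.22. A further 6 alpha genes were too low to test. PCDHA1, PCDHA9 and PCDHA13 had at most 11 counts in any library. PCDHA12 had 10, 2 and 2 counts in parental and 11, 10 and 60 in resistant cells, so 1 library holds most of them. The C-type gene PCDHAC1 had 0, 3 and 4 counts in parental and 8, 19 and 12 in resistant cells. PCDHAC2, the other C-type alpha gene, had 0 counts in every Huh7 P library and 3, 6 and 0 in Huh7 LR, too few for a fold. Both C-type genes together made 0.407% ± 0.365 of the alpha counts in the parental line and 1.34% ± 0.523 in the resistant line (SD, n = 3, exact permutation p = 0.1, the smallest possible).

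**Figure D2:**
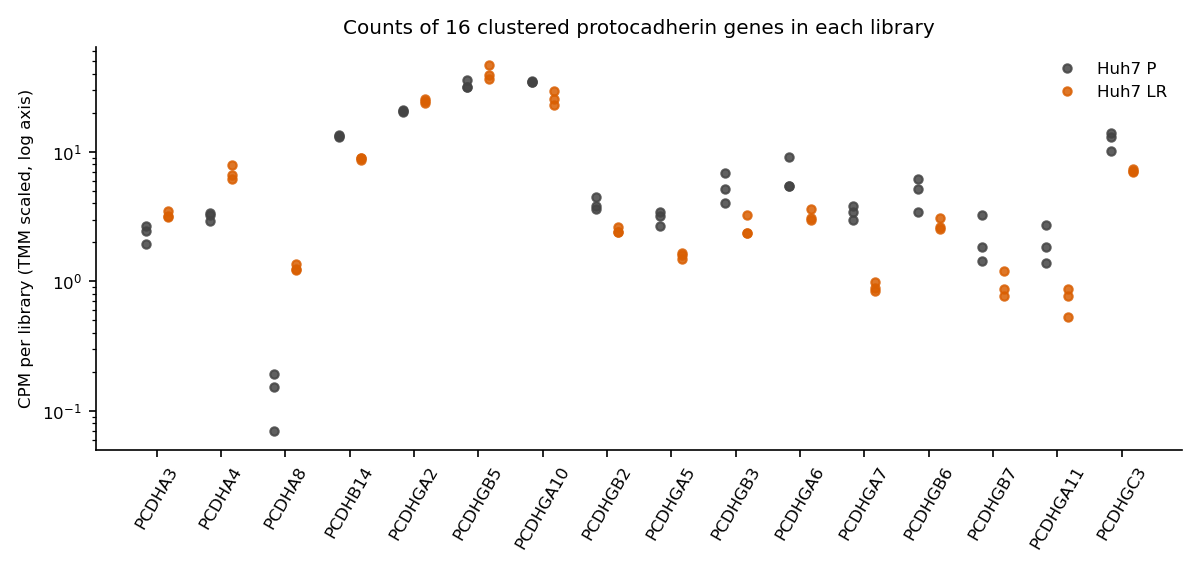
CPM (TMM scaled, vertical log axis) in each of 3 Huh7 P (dark) and 3 Huh7 LR (orange) libraries for 16 clustered protocadherin genes, 1 point per library. The 16 were picked from the genes that passed the test, so it is no further evidence that the lines did not overlap in any of them. Among the 16, PCDHA8 was lowest in Huh7 P, at 0.139 CPM on average.

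The beta cluster was the most abundant by counts, and the change of its sum did not pass the test. Its 16 genes summed to 185 ± 9.12 CPM in Huh7 P and 172 ± 10.9 CPM in Huh7 LR (SD, n = 3). The log2 fold change of the sum was -0.11 (SE 0.07, 95% interval -0.25 to 0.04, edgeR quasi-likelihood adjusted p = 0.257), and the exact permutation test gave p = 0.3. PCDHB3, PCDHB5 and PCDHB8 were the highest by mean FPKM over the 6 libraries and made 50.8% of the beta counts in the parental line and 51.6% in the resistant line. PCDHB3 had 2849, 2419 and 2263 counts in parental and 2114, 2605 and 2318 in resistant cells (log2 fold change -0.13, SE 0.08, edgeR adjusted p = 0.228). PCDHB5 had 2797, 2284 and 2349 and then 1910, 2607 and 2412 (log2 fold change -0.14, SE 0.09, edgeR adjusted p = 0.266). PCDHB8 had 1425, 1195 and 1137 and then 1217, 1415 and 1468 (log2 fold change 0.09, SE 0.09, edgeR adjusted p = 0.443). The libraries of both lines overlapped in counts for all 3.

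PCDHB14 was the beta gene that fell furthest among those that passed. It had 958, 801 and 882 counts in the parental samples and 581, 611 and 609 in the resistant samples, with no overlap. It fell from 13.3 ± 0.262 to 8.85 ± 0.115 CPM (SD, n = 3), which is a log2 fold change of -0.58 (SE 0.09, edgeR quasi-likelihood adjusted p = 0.0005). PCDHB4 went from 479, 430 and 439 to 355, 364 and 383 counts (log2 fold change -0.32, SE 0.11, edgeR adjusted p = 0.0379). That call did not hold when any single library was left out, in DESeq2 (adjusted p = 0.0539), without the filter on low counts (0.0640), with the replicate number as a block (0.0578) or in limma-trend on log2(FPKM + 0.1) (0.0785). With a library left out, the adjusted p was 0.0757, 0.127 and 0.0766 without Huh7 P replicates 1, 2 and 3, and 0.0558, 0.0791 and 0.0718 without Huh7 LR replicates 1, 2 and 3. The 13 other tested beta genes had log2 fold changes between -0.37 (PCDHB15) and 0.78 (PCDHB7), none of which passed. PCDHB1 had 0 counts in every library.

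In the gamma cluster 10 of 22 genes fell (45.5%) and 3 rose (13.6%), beside 22.4% and 23.3% of all genes and loci tested, and the sum fell slightly. The 3 rises were all lost without Huh7 P replicate 1, while 10 or 11 genes fell whichever library was left out. Its 22 genes summed to 159 ± 7.59 CPM in Huh7 P and 139 ± 8.05 CPM in Huh7 LR (SD, n = 3), and the lines did not overlap. The log2 fold change of the sum was -0.20 (SE 0.07, edgeR quasi-likelihood adjusted p = 0.0454, exact permutation p = 0.1). That call was lost with the replicate number as a block (adjusted p = 0.0501), without the filter on low counts (0.0574), without the C-type genes (0.102), and without Huh7 P replicate 1 (0.139), Huh7 P replicate 2 (0.158), Huh7 LR replicate 1 (0.0938) or Huh7 LR replicate 3 (0.147). The sums by type also depend on how reads of the constant exons were assigned, which is not known. The type A genes together fell (log2 fold change -0.28, SE 0.06, edgeR adjusted p = 0.00509), from 87.3 ± 0.963 to 72.1 ± 3.11 CPM (SD, n = 3). The type C genes together fell from 13.3 ± 2.64 to 7.82 ± 0.119 CPM (log2 fold change -0.77, SE 0.14, edgeR adjusted p = 0.00108). The type B genes together stood at 58.8 ± 5.41 and 59.3 ± 5.04 CPM, with overlapping libraries (log2 fold change 0.01, SE 0.09, 95% interval -0.16 to 0.19, edgeR adjusted p = 0.923). Its sign turned without Huh7 P replicate 3 (-0.06), without Huh7 LR replicate 2 (-0.05) and on FPKM (-0.03).

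**Figure D3:**
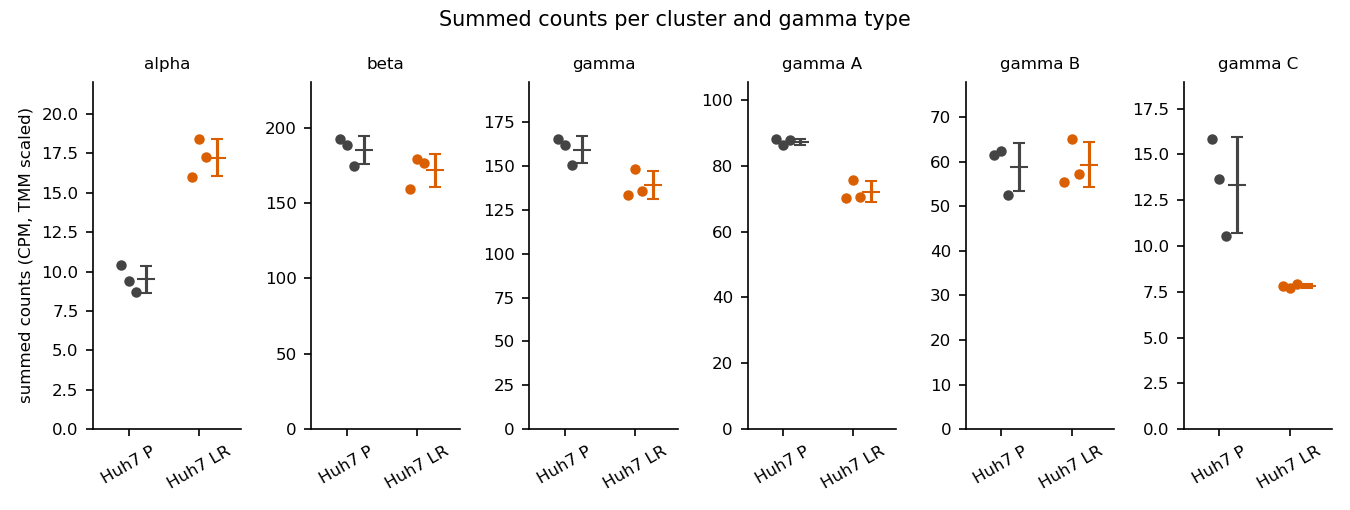
Summed CPM (TMM scaled, vertical axes from 0) of the alpha, beta and gamma clusters and of the gamma A, B and C types in 3 Huh7 P (dark) and 3 Huh7 LR (orange) libraries, with the mean and SD beside the points. The alpha sum rose from 9.50 to 17.2 CPM and the gamma C sum fell from 13.3 to 7.82 CPM, while the libraries of both lines overlapped for the beta and gamma B sums.

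PCDHGA7 (ENSG00000253537, chr5:141382739-141512979) fell furthest. Its counts were 215, 211 and 249 in the parental samples and 65, 59 and 61 in the resistant samples, far apart and with small spread within each line. It went from 3.41 ± 0.406 to 0.911 ± 0.0789 CPM (SD, n = 3), which is a log2 fold change of -1.90 (SE 0.18, edgeR quasi-likelihood adjusted p = 1.55e-05). Its 4 nearest upstream neighbours in the cluster fell too. These were PCDHGB2 (log2 fold change -0.69), PCDHGA5 (-0.97), PCDHGB3 (-1.01) and PCDHGA6 (-1.05), with edgeR adjusted p-values between 0.00088 and 0.00346. PCDHGA6 had 657, 336 and 359 counts in parental and 238, 216 and 203 in resistant cells, so that replicate 1 of Huh7 P stood well above the others. Directly downstream of PCDHGA7, PCDHGB4 (-0.26) and PCDHGA8 (-0.49) did not pass (edgeR adjusted p = 0.459 and 0.243), and the next gene, PCDHGB5, rose. Further along, PCDHGB6 (-0.85), PCDHGB7 (-1.20) and PCDHGA11 (-1.44) fell, with edgeR adjusted p-values from 0.00222 to 0.00881. PCDHGB7 had 233, 88 and 121 counts in parental and 50, 84 and 60 in resistant cells, and without Huh7 P replicate 1 its log2 fold change was -0.79 (edgeR adjusted p = 0.0491).

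The more abundant gamma genes parted in direction. PCDHGB5, the highest by mean FPKM over the 6 libraries, rose slightly from 2260, 2219 and 2068 counts to 2573, 3267 and 2496 (33.0 ± 2.54 to 40.9 ± 5.17 CPM, SD, n = 3; log2 fold change 0.31, SE 0.10, edgeR adjusted p = 0.0253). PCDHGA10, the next, fell from 2481, 2157 and 2316 counts to 1492, 2070 and 1745 (35.0 ± 0.425 to 26.0 ± 3.35 CPM). Its log2 fold change was -0.43 (SE 0.09, edgeR adjusted p = 0.0036). PCDHGA2, the third, rose from 1477, 1259 and 1377 counts to 1611, 1684 and 1745 (20.7 ± 0.339 to 24.8 ± 0.772 CPM, log2 fold change 0.26, SE 0.08, edgeR adjusted p = 0.0162). The lines did not overlap in CPM for any of these 3. The rise of PCDHGB5 was lost without Huh7 P replicate 1, Huh7 P replicate 3 or Huh7 LR replicate 2 (adjusted p = 0.0925, 0.0917 and 0.0659). The rise of PCDHGA2 was lost without Huh7 P replicate 1, Huh7 P replicate 2 or Huh7 LR replicate 3 (adjusted p = 0.0544, 0.0783 and 0.0696).

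PCDHGA3, the remaining gene that rose, had 165, 154 and 183 counts in parental and 266, 310 and 192 in resistant cells (log2 fold change 0.58, SE 0.19, edgeR adjusted p = 0.0286). It is the least certain of the 3. The adjusted p was 0.101, 0.0803, 0.0637 and 0.0943 without Huh7 P replicate 1, Huh7 P replicate 2, Huh7 LR replicate 1 and Huh7 LR replicate 2. On FPKM the difference was 0.10 (limma-trend adjusted p = 0.596), and the length behind its FPKM varied 1.66-fold among libraries. PCDHGC3, the abundant one of the C-type genes, had 1000, 800 and 660 counts in parental and 461, 486 and 501 in resistant cells. It fell from 12.3 ± 2.0 to 7.12 ± 0.207 CPM (SD, n = 3), which is a log2 fold change of -0.79 (SE 0.13, edgeR quasi-likelihood adjusted p = 0.000551), with no overlap. PCDHGC4 had 8 to 33 counts in each library and did not pass (log2 fold change -0.01, SE 0.54). PCDHGC5 had 107, 21 and 20 counts in parental and 29, 21 and 33 in resistant cells, so that its log2 fold change of -0.81, which did not pass (SE 0.57, edgeR adjusted p = 0.27), rests on replicate 1 of Huh7 P. By place, which was looked at after the values were seen and was not tested, the first 4 gamma genes (PCDHGA1, PCDHGA2, PCDHGA3 and PCDHGB1) included 2 that rose and 0 that fell, and neither rise held without Huh7 P replicate 1 or 2. Among the 18 that follow, 1 rose and 10 fell, beside 23.3% and 22.4% of everything tested, and that rise did not hold without Huh7 P replicate 1, Huh7 P replicate 3 or Huh7 LR replicate 2.

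Some shares of single genes within the alpha and gamma clusters differed without overlap between the lines, and others overlapped. PCDHGB5, PCDHGA10 and PCDHGA2 made 52.4%, 56.3% and 58.4% of the gamma counts in the parental samples and 65.2%, 67.5% and 64.6% in the resistant samples. The share of PCDHGB5 alone went from 20.7% ± 1.57 to 29.3% ± 2.25 and that of PCDHGA2 from 13.0% ± 0.836 to 17.8% ± 1.44, while that of PCDHGA10 went from 22.0% ± 1.33 to 18.6% ± 1.39 (SD, n = 3). The C-type genes made 8.33% ± 1.28 of the gamma counts in the parental line and 5.63% ± 0.379 in the resistant line. In the alpha cluster the share of PCDHA4 went from 33.8% ± 5.12 to 40.3% ± 2.72 and that of PCDHA3 from 24.8% ± 3.70 to 19.1% ± 1.79. The exact permutation test gave p = 0.1 for each of these shares of counts, the smallest that 3 against 3 allows, so no share could pass 0.05. Of the summed alpha FPKM, PCDHA4 made 20.2% ± 5.89 in Huh7 P and 31.8% ± 3.34 in Huh7 LR (exact permutation p = 0.1). PCDHA3 made 24.7% ± 5.21 and 18.6% ± 0.728 of it, with overlap between the lines (exact permutation p = 0.3). By counts, the lines overlapped in the share of PCDHA2 (18.7% ± 3.37 and 14.5% ± 1.55) and in that of the 3 highest alpha genes together (77.2% ± 2.98 and 73.9% ± 1.43), with an exact permutation p = 0.2 for each. In the beta cluster the share of the 3 highest genes gave an exact permutation p = 0.4. Over the 3 clusters, alpha made 2.68% ± 0.133 of the counts in the parental line and 5.25% ± 0.0609 in the resistant line, gamma 45.0% ± 0.0969 and 42.4% ± 1.09 (exact permutation p = 0.1 for both), and beta 52.3% in both lines (exact permutation p = 1). All 53 genes together summed to 354 ± 17.5 and 328 ± 18.8 CPM (SD, n = 3), with an exact permutation p = 0.2.

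**Figure D4:**
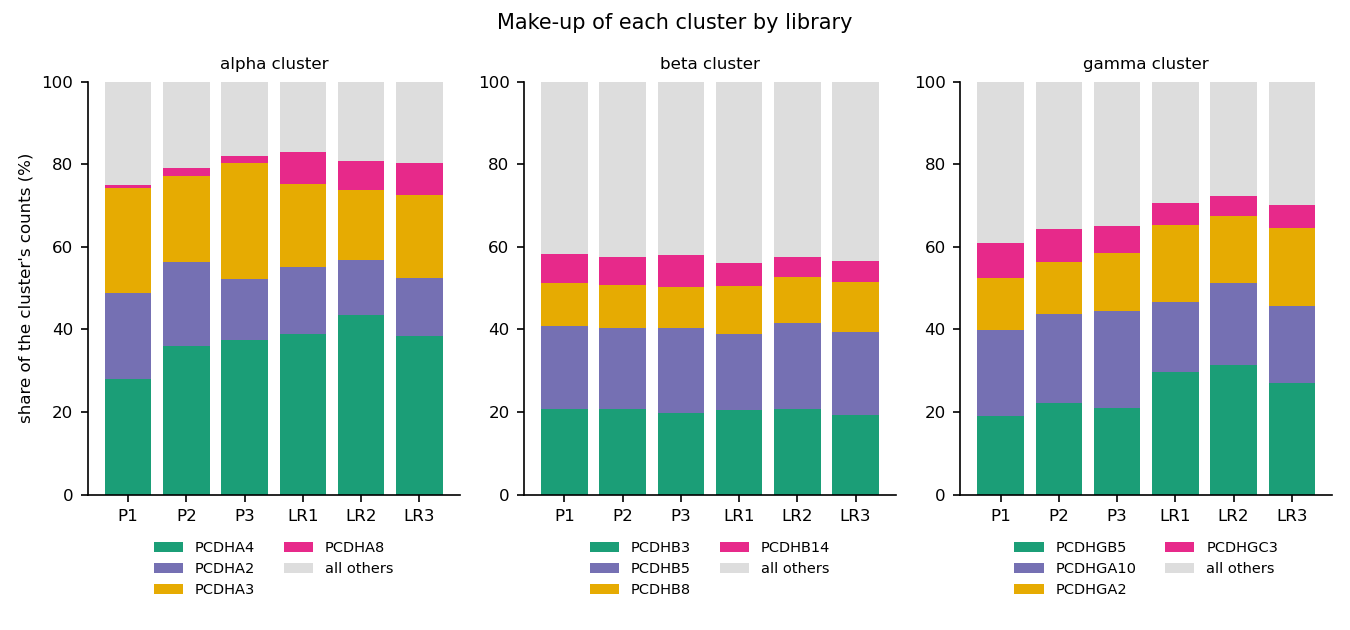
Share of each cluster's counts (%, vertical axis) taken by its 3 highest genes by mean FPKM over the 6 libraries, by 1 further gene and by all others, in each of 3 Huh7 P (P1 to P3) and 3 Huh7 LR (LR1 to LR3) libraries. PCDHA8 widens from 1.5% to 7.46% of the alpha counts and PCDHGB5 from 20.7% to 29.3% of the gamma counts, while PCDHB3 and PCDHB5 keep close to 20% of the beta counts each.

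Listed genes of cohesin, CTCF, DNA methylation and heterochromatin were mostly lower in Huh7 LR. The lists were written from general knowledge and are not limited to genes known to act at these promoters. Of 15 cohesin, CTCF and loop regulators 13 fell and 0 rose, with a median log2 fold change of -0.42, where 22.4% of all genes and loci fell. By the unadjusted p under 0.05, by DESeq2 and by limma-trend, 0 rose as well, and without Huh7 LR replicate 1, 1 rose. The largest falls were those of ESCO2, an acetyltransferase of cohesin, from 27.6 ± 1.57 to 13.9 ± 1.54 CPM (log2 fold change -0.99, edgeR adjusted p = 1.97e-05), and of SMC3, a subunit of its ring, from 408 ± 28.2 to 236 ± 16.5 CPM (log2 fold change -0.79, edgeR adjusted p = 1.99e-05; SD, n = 3). RAD21 (-0.54), STAG2 (-0.65) and CTCF (-0.33) fell too. MAU2 (0.11) and HDAC8 (-0.06) did not pass.

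Of 22 regulators of DNA methylation and heterochromatin 13 fell (59.1%) and 1 rose (4.55%), with a median log2 fold change of -0.27, where 22.4% and 23.3% of all genes and loci did. Without Huh7 P replicate 2, 8 fell. SMCHD1, a repressor that binds silenced protocadherin clusters, fell from 140 ± 4.79 to 75.9 ± 9.35 CPM (SD, n = 3; log2 fold change -0.89, SE 0.09, edgeR adjusted p = 2.20e-05). DNMT3L, a catalytically inactive partner of the DNA methyltransferases, had 11, 14 and 11 counts in parental and 60, 45 and 45 in resistant cells (log2 fold change 2.01, SE 0.37, edgeR adjusted p = 0.00107). The maintenance methyltransferase DNMT1 fell (-0.33), and DNMT3B (-0.17) and DNMT3A (0.19) did not pass. These levels stood beside the alpha rise and the gamma falls in the same libraries, and whether they had a part in either was not tested.

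**Figure D5:**
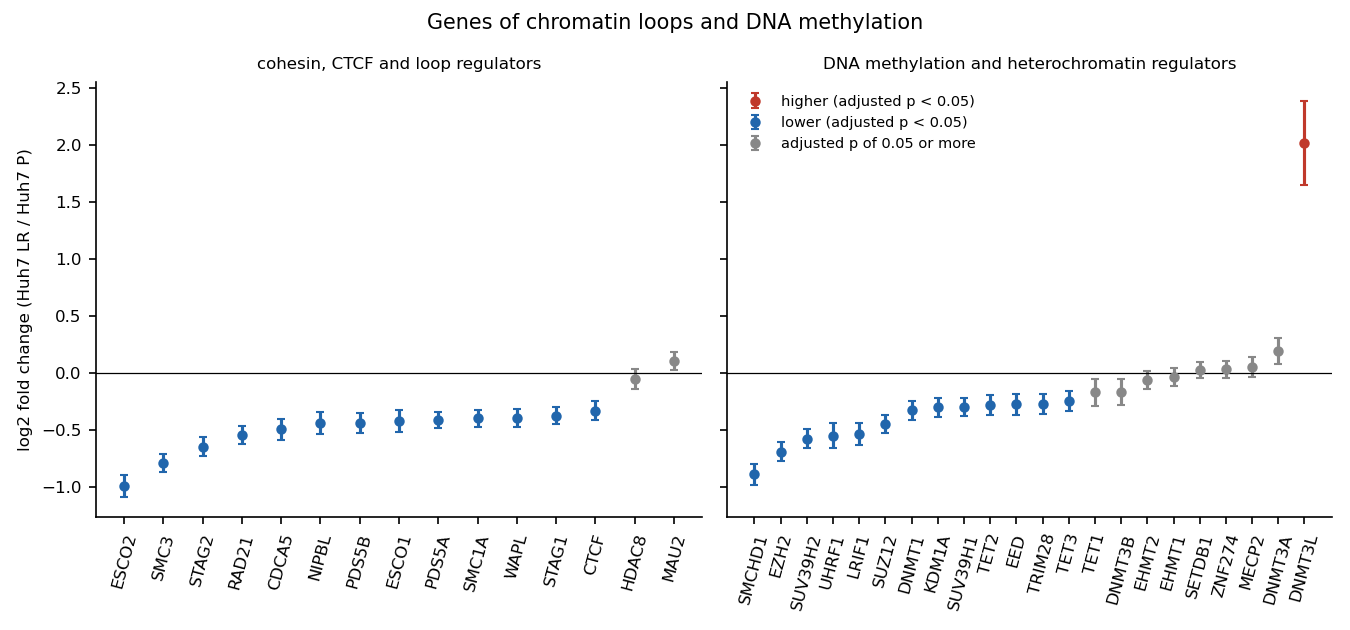
Log2 fold change (Huh7 LR over Huh7 P, edgeR, vertical axis) with bars of 1 standard error, n = 3 samples per line, for 15 cohesin, CTCF and loop regulators (left) and 22 regulators of DNA methylation and heterochromatin (right), sorted by value. In each panel 13 genes passed as lower (blue), and DNMT3L, at 2.01, was the one that passed as higher (red).

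Of 23 partners inside the cell 6 rose and 6 fell (26.1% each), near the 23.3% and 22.4% of all genes and loci tested. CYFIP2, a subunit of the WAVE actin-regulating complex to which some protocadherins bind, rose from 22, 5 and 13 counts to 164, 149 and 146 (log2 fold change 3.50, SE 0.35, edgeR adjusted p = 2.07e-05). PSEN2, a catalytic subunit of the gamma-secretase that cleaves protocadherins, rose by 0.72 on the log2 scale (edgeR adjusted p = 0.00247). Of the 25 non-clustered protocadherins and related large cadherins listed, 18 were tested, 3 rose (16.7%) and 6 fell (33.3%), beside 23.3% and 22.4% of everything tested. Without Huh7 P replicate 1, and also by limma-trend on FPKM, 3 fell. FAT4 (log2 fold change 1.33) and PCDH1 (1.14) rose and PCDH7 (-1.53) fell. DCHS2, a large cadherin of the dachsous family, had 18, 0 and 10 counts in parental and 68, 48 and 58 in resistant cells (log2 fold change 2.62, edgeR adjusted p = 0.00665), and without Huh7 P replicate 1 its log2 fold change was 3.43. DCHS1, of the same family, fell from 995, 790 and 844 to 569, 291 and 355 counts (log2 fold change -1.13, edgeR adjusted p = 0.00157). Of 9 classical cadherins and catenins tested 3 rose (33.3%) and 0 fell, beside 23.3% and 22.4% of everything tested. By the unadjusted p under 0.05, DESeq2 and limma-trend 0 fell as well. CDH6 rose (2.87), and CDH1, the epithelial cadherin, rose from 258 ± 7.80 to 502 ± 35.3 CPM (SD, n = 3; log2 fold change 0.96, edgeR adjusted p = 2.97e-06).

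Of 26 neighbours tested in 5q31, 5 rose (19.2%) and 7 fell (26.9%), near the 23.3% and 22.4% of all genes and loci tested, with a median log2 fold change of 0.03. Without Huh7 P replicate 2, 3 rose and 4 fell, and without Huh7 P replicate 3, 4 fell. Split by side, a split chosen after the values were seen and not tested, 1 of 15 before the alpha cluster rose and 6 fell (median log2 fold change -0.08), and 4 of 10 beyond the gamma cluster rose and 1 fell (median 0.15). Before the alpha cluster 3 fell without Huh7 P replicate 2 or 3, and 3 rose without Huh7 LR replicate 2. Beyond the gamma cluster 2 rose without Huh7 P replicate 1 or 2, and 2 fell without Huh7 LR replicate 2. HBEGF, a ligand of the EGF receptor, rose (57, 53 and 56 counts to 176, 161 and 139, log2 fold change 1.49, edgeR adjusted p = 0.000146), as did PCDH1. TAF7, a general transcription factor gene lying between the beta and gamma clusters, stood at 99.1 ± 11.1 and 99.8 ± 3.73 CPM (SD, n = 3; log2 fold change 0.01). HARS, a histidyl-tRNA synthetase gene upstream of the alpha cluster, fell by 0.35 on the log2 scale. DIAPH1, a formin gene beyond the gamma cluster, stood at 371 ± 13.6 and 395 ± 22.6 CPM (SD, n = 3; log2 fold change 0.09).

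Among markers of other cell types, LYZ in Huh7 P and PECAM1 in both lines had a higher mean CPM than every clustered protocadherin gene. The glia list (7 genes) summed to 20.5 to 23.4 CPM in Huh7 P and 26.0 to 31.01 CPM in Huh7 LR, and both of its tested genes, MBP (log2 fold change 0.34) and AQP4 (0.64), rose. The rise of MBP was lost without Huh7 P replicate 1 or 2 (edgeR adjusted p = 0.0528 and 0.0755). The fibroblast list (8 genes) summed to 7.73 to 9.10 and 7.45 to 11.2 CPM, with COL1A1 (1.84) and PDGFRB (0.84) higher and PDGFRA lower (-1.10). The endothelium list (5 genes) summed to 38.8 to 47.5 and 65.0 to 71.2 CPM, nearly all of it PECAM1 (0.64), while CDH5, TEK and KDR had at most 3 counts in every library. VWF passed as higher on few counts, with 0, 0 and 8 in parental and 19, 26 and 21 in resistant cells (log2 fold change 2.95, edgeR adjusted p = 0.0179). That call was lost without Huh7 P replicate 1 or 2 (adjusted p = 0.0614 and 0.0610) or Huh7 LR replicate 2 or 3 (0.0535 and 0.0508), and without Huh7 P replicate 3 no parental count is left for a fold. The leukocyte list (6 genes) summed to 60.6 to 65.9 and 8.28 to 10.6 CPM, nearly all of it LYZ, which fell (-2.79).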

How the data were processed

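RNA of 3 Huh7 P and 3 Huh7 LR samples was poly(A)-selected and made into NEBNext Ultra libraries, per the labels. The authors deposited a table of whole-number read counts per gene, not normalized, and of FPKM values, which they scaled for transcript length and library size. The submitters' processing notes name TopHat2, Cufflinks, DESeq and mm10 with no roles, and the labels describe extraction from honeybee larvae, whereas the gene identifiers are human. The counting program, annotation and use of strand are not given in the sources used here. A further 34 lines of annotation text were left out.

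Groups came from the sample labels. Counts were tested in R 4.3.3 with edgeR 4.0.16 (filterByExpr, minimum count 10 and total 15; TMM factors 0.977 to 1.03; quasi-likelihood test with Benjamini-Hochberg adjustment over 17531 genes and loci). Totals ran from 62738937 to 71427573 counts, and the biological coefficient of variation was 12.7%. For sums, a cluster's rows were replaced by their total before the fit. The standard error of a fold change was taken from its F statistic. Exact two-sided permutation tests compared single values. Alternatives were DESeq2 1.42.0, limma-trend (limma 3.58.1) with pseudocounts of 0.1 and 1 on log2 FPKM, restricted to genes at 0.5 FPKM or more in 3 libraries, other filters and thresholds, a replicate block and each library left out. The same alternatives for the fixed lists, and those for the C-type share, were added after seeing the data.

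Named genes are all members with an adjusted p under 0.05, the 3 of each cluster with the highest mean FPKM, called genes of the fixed lists and the 2 largest changes of each list. Other genes were named after their values were seen, and sets, lists and motifs were chosen with earlier results of these data known. On simulated counts edgeR recovered 74 of 100 genes changed by a log2 fold of 1 and 91 of 100 changed by 2, with 13 false calls among 17251. Figures were drawn with matplotlib 3.10.9.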

Additional observations from a re-analysis of the deposited data

How the results depend on the processing

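The alpha sum kept its direction and passed the test under all 15 alternatives (log2 fold change 0.65 to 0.93), and the gamma A and gamma C sums did so under all 13 of theirs. None of these alternatives changed how reads of the constant exons were assigned to genes. The count of 8 genes that rose was 4 by limma-trend with either pseudocount and 4 to 8 with 1 library left out, lowest without Huh7 P replicate 2 or 3. The count of 12 that fell was 11 or 12 with 1 library left out. The 2 genes called higher became 1 with at least 10 counts in every library, 1 by limma-trend on log2(FPKM + 0.1), 0 by limma-trend on log2(FPKM + 1) and 4 at an adjusted p under 0.05 with the 2-fold threshold. The 1 called lower became 4 by DESeq2, 3 without a filter, 2 with the replicate block, 0 by limma-trend on log2(FPKM + 1) and 5 at an adjusted p under 0.05. The pseudocount of 1 lies above the FPKM of most of these genes and shrinks their folds. The gamma sum no longer passed without a filter (-0.19, adjusted p = 0.0574), with the replicate block (-0.20, adjusted p = 0.0501) and without its C-type genes (-0.15, adjusted p = 0.102), and it ran from -0.24 to -0.17 with 1 library left out. Without PCDHGB5 it was -0.36. The cause of these losses was not tested. The gamma B sum, which never passed, turned sign in limma-trend (-0.0252 and -0.0238) and ran from -0.0648 to 0.0607 with 1 library left out. Of the 20 genes that passed, 13 passed under every alternative that could be fitted (2 of the 8 that rose and 11 of the 12 that fell), and the other 7 lost the call under at least 1. None of these 20 reversed under an alternative that could be fitted. Counts over the fixed lists moved by over 1.5 times for regulators of DNA methylation (1 higher to 0 by limma-trend with either pseudocount, and 8 to 13 lower with 1 library left out), for cohesin and CTCF genes (0 to 1 higher with 1 library left out), for non-clustered protocadherins (6 lower to 3 by limma-trend with either pseudocount, and 3 to 6 with 1 library left out) and for the neighbours (3 to 7 higher and 4 to 8 lower with 1 library left out). These list alternatives were chosen after seeing the data.

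Samples with the same replicate number correlated in their deviations at 0.0290 to 0.0317, under 0.1, so the numbers were not taken as pairs, although each sample correlated best with its own number. Low counts limit the alpha genes, of which 6 of 15 could not be tested. Reads in shared constant exons limit all single alpha and gamma values, the sums by gamma type and the shares within these clusters. Strandedness is not given in the sources used here.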
